A study of Homo sapiens with 16 samples.

Results

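The 10 genes described here encode enzymes of the methionine cycle and of transsulfuration: MAT1A, MAT2A, MAT2B, GNMT, AHCY, MTR, MTRR, BHMT, CBS and CTH. They were chosen by name, as the genes that make, spend and rebuild S-adenosylmethionine (SAM) and that turn homocysteine into cysteine. All 10 were found among the 20033 protein-coding genes of GENCODE release 44. For each gene, every H3K4me3 and H3K27me3 region within 3 kb of any annotated start site was taken, with its call, length and rank in every library.

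The data were peak lists from CUT&RUN, in which an antibody guides a nuclease to a histone mark and the released DNA is sequenced. MCF-10A cells, an immortalized but not tumorigenic human breast epithelial line, were given 5 mM octanoic acid (OA), a medium-chain fatty acid, or vehicle (PBS) for 24 hours. H3K4me3 and H3K27me3 were each profiled in 3 cultures per treatment, and untreated cells gave 2 H3K4me3 libraries and 2 with IgG, an antibody with no histone target. All 16 libraries came from this one line, and each treated culture was a biological replicate. The comparison asked whether the fatty acid changed the 2 marks at the genes that supply the methyl groups for such marks.

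In the methionine cycle, methionine adenosyltransferases join methionine to ATP to make SAM, methyltransferases pass its methyl group on, and the S-adenosylhomocysteine left behind is split into adenosine and homocysteine. Homocysteine is then either methylated back to methionine or condensed with serine and led through cystathionine to cysteine and glutathione. The cycle runs in all cells, but the liver holds a form of its own, with MAT1A in place of MAT2A and with large amounts of GNMT and BHMT. H3K4me3 marks the start sites of active and of many poised genes, most of which lie in CpG-rich DNA, and H3K27me3 is deposited by the Polycomb complex at silent genes.

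The libraries held 16086 to 21033 H3K4me3 peaks in the vehicle and OA groups, 11242 and 12924 in untreated cells, 1131 and 1280 with IgG, and 9091 to 47648 H3K27me3 peaks. Peak lists hold no read totals. The lowest background that the peak caller used, recovered from the fold and p-value of the peaks, was 0.450 to 0.850 reads per position in the 6 H3K4me3 libraries. It was lowest in vehicle replicate 3, whose median peak was also the lowest at 22 reads, against 32 to 76 in the other 5. The cell type was checked against markers: all 7 basal breast epithelial genes tested had an H3K4me3 region, as had 66.8% of coding genes, and none of 5 hepatocyte and 4 blood genes had one. Of the 7, 4 were called in all 6 libraries, while KRT14 was called in 2 vehicle and 0 OA libraries, TP63 in 2 and 1 and LAMB3 in 2 and 3.

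The sequence before the start site is shown for 5 genes that span the range of H3K4me3 found: MAT2A, called in all 6 vehicle and OA libraries, CBS and GNMT, called in some, and MAT1A and BHMT, called in none of these. The letters come from RefSeq on GRCh38.p14, run 5′ to 3′ on the gene's strand and stop before annotated exons. Capitals mark CpG dinucleotides. The stretches are chr2:85538918-85539167 (plus strand) for MAT2A, chr21:43075946-43076085 (minus strand) for CBS, chr6:42960504-42960753 (plus) for GNMT, chr5:79111559-79111808 (plus) for BHMT and chr10:80289659-80289908 (minus) for MAT1A. The CBS stretch ends 110 bases before its start site, because the bases between belong to exons of other transcripts.
MAT2A: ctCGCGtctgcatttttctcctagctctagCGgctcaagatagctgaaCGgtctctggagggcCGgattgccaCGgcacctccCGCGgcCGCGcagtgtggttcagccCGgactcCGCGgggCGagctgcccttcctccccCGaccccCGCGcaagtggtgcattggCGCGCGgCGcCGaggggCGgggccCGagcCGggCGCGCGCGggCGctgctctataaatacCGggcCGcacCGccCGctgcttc
CBS: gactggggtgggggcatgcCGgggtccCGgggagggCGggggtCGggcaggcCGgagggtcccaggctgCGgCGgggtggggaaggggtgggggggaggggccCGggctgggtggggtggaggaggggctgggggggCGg
GNMT: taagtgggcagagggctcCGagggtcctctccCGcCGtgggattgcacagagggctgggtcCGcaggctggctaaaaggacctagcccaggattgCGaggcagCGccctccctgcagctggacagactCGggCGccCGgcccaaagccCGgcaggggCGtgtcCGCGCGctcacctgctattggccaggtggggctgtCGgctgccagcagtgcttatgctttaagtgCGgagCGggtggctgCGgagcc
BHMT: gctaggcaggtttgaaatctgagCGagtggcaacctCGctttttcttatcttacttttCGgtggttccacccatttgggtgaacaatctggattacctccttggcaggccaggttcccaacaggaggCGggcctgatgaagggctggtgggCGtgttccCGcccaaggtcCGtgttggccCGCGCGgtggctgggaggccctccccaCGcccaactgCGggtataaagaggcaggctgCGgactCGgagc
MAT1A: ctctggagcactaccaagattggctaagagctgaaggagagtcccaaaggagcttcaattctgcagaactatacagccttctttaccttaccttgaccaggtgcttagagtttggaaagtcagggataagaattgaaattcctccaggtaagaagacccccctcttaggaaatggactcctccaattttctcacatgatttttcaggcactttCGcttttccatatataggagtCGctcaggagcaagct

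MAT2A held 34 CpG dinucleotides in these 250 bases, GNMT 18, BHMT 14 and MAT1A 2, and CBS held 9 in its 140 bases. Over the full promoter window of 300 bases, from 250 before the start site to 50 after it, the observed over expected CpG ratio was 1.14 at MAT2A, higher than or equal to 98.6% of the 35116 promoters in the RefSeq table. It was 0.174 at MAT1A, where only 18.6% of promoters were as low or lower, and the median promoter had 0.579. Of the 9 members in the table, the other 7 lay at 1.03 (MAT2B), 0.915 (CTH), 0.801 (AHCY), 0.762 (MTR), 0.727 (BHMT), 0.680 (CBS) and 0.676 (GNMT).

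H3K4me3 regions were found at 8 of the 10 genes, and 6 of these, MAT2A, MAT2B, AHCY, MTR, MTRR and CTH, were called in all 6 libraries. Among all protein-coding genes, 66.8% had a region kept in at least 2 libraries and 56.4% had one called in all 6, so the members' shares were close to those of coding genes at large. GNMT and CBS were called in some libraries, as were 10.4% of all coding genes, and MAT1A and BHMT in none. IgG gave no peak at any of the 10 genes. No member had an H3K27me3 region kept in at least 2 libraries, where 13.8% of coding genes did and 1.49% had one called in all 6.

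**Figure D1:**
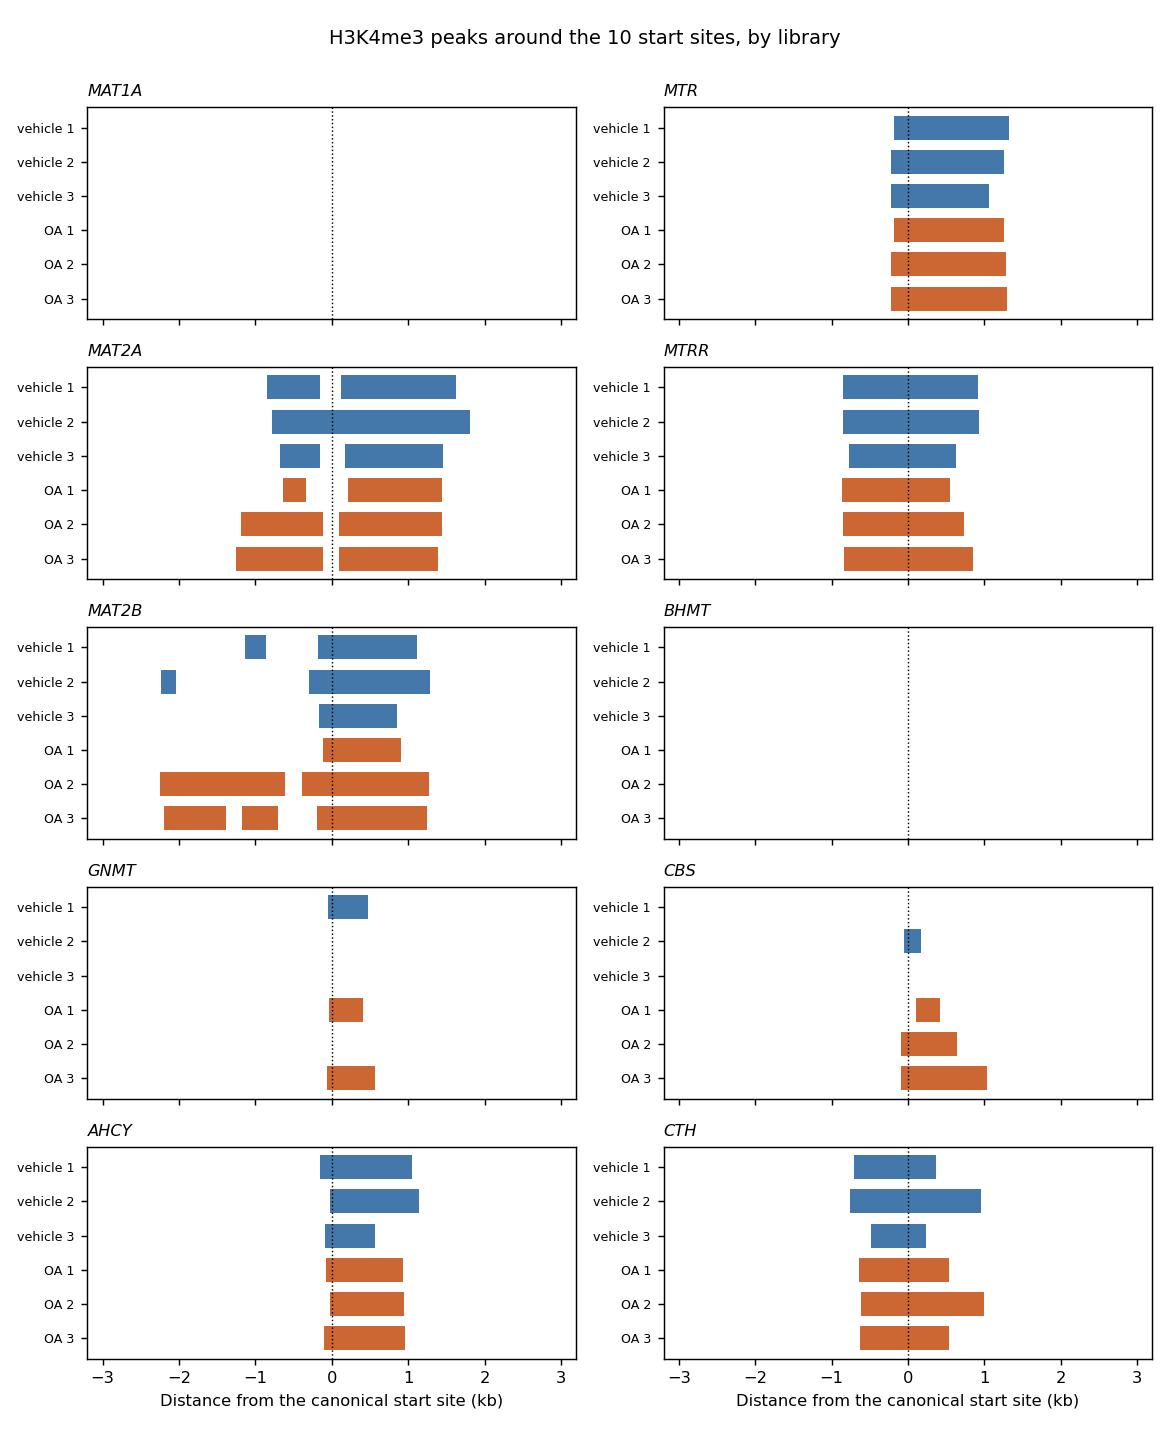
H3K4me3 peaks of the 10 genes in the 3 vehicle (blue) and 3 OA (orange) libraries, 1 row per library, against the distance in kb from the canonical start site (dotted line), with transcription running to the right. MTR is covered over the same stretch in all 6 libraries, MAT2A is split around its start site in 5 of 6, CBS is called in 1 vehicle and 3 OA libraries, and MAT1A and BHMT are empty. A short region of AHCY 11144 bp upstream of its canonical start site lies outside the axis.

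SAM is made by MAT1A, the catalytic subunit of adult liver, or by MAT2A, the catalytic subunit of other tissues and of growing cells, to which MAT2B adds a regulatory subunit. MAT1A (ENSG00000151224.13, chr10:80271820-80289658 on hg38) had no peak of either mark in any library, untreated cells included. In all, 3208 coding genes, MAT1A included, lacked both marks in this way, and BHMT2 and MTAP were the 2 of the wider pathway list that did. Peak lists cannot tell an unmarked gene from one whose DNA is missing, and the presence of the DNA was not tested. The CpG ratio of MAT1A was the lowest of the 9 members in the promoter table, which has no entry for MTRR.

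MAT2A (ENSG00000168906.13, chr2:85539168-85545281) carried a region of 3068 bp, chr2:85537910-85540977, from 1258 bp before its start site to 1809 bp after it, over exon 1 and intron 1. The region also lay within 3 kb of a start site of PARTICL, a noncoding RNA gene, and the mark cannot be assigned to one gene or the other. Vehicle replicates 1 to 3 had 2205, 2587 and 1805 called bases there, and OA replicates 1 to 3 had 1543, 2429 and 2442. The groups overlapped (exact permutation p = 0.80, two-sided). In 5 of 6 libraries the region was split into 2 peaks that left the start site itself uncovered, as from -149 to 124 bp in vehicle replicate 1, and the highest point lay downstream in 5 of 6, at 871 to 1287 bp. Of the untreated libraries, replicate 1 had a call of 1234 bp and replicate 2 had none.

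The strength of a peak was compared as its percentile by p-value among all peaks of its own library, because p-values grow with depth. MAT2A stood at 66.5, 64.7 and 53.0 in vehicle and at 56.4, 61.6 and 56.7 in OA, which overlapped (means 61.4 ± 7.32 and 58.2 ± 2.91, SD, n = 3; exact permutation p = 0.60). Ranked by height alone, MAT2A stood at 94.3, 92.1 and 64.8 in vehicle and 86.1, 82.1 and 82.5 in OA, again overlapping.

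MAT2B (ENSG00000038274.18, chr5:163503114-163519558) had its main region at chr5:163505235-163506904, from 384 bp before the canonical start site to 1285 bp after it. It stood at percentiles of 87.5, 90.3 and 97.0 in vehicle and 75.6, 73.1 and 64.7 in OA. All 3 OA libraries were below all 3 vehicle libraries, by 20.5 points in the mean (91.6 ± 4.86 against 71.1 ± 5.69, SD, n = 3; exact permutation p = 0.10, the smallest that 3 against 3 can give). Of the 11071 regions called in all 6 libraries, 7.10% were below vehicle in this way and 9.38% above.

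In the fit across all these regions, limma was used on normal scores of the ranks. No region passed an adjusted p of 0.05 in either direction (0%). At an unadjusted p below 0.05, 815 were higher and 411 lower. Ranks within a library cannot show a gain shared by all regions. The paper reports H3K4me3 peaks significantly enriched with OA, from a differential test that peak lists do not allow to be repeated. The MAT2B difference was -0.88 (SE 0.28) in normal score units with an adjusted p of 0.302 from limma, and thus not a call. Its size changed with the measure. By the caller's fold of the peak over its background, ranked in the same way, it was -1.01 (SE 0.38, adjusted p = 0.532 from limma). By peak height, vehicle held 148, 276 and 123 reads and OA 62, 186 and 149, at percentiles of 97.2, 97.5 and 98.0 against 94.5, 96.2 and 93.7. OA was still below vehicle in all libraries, as in 8.60% of regions by this measure, but the limma difference was -0.34 (SE 0.22, adjusted p = 0.522).

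Upstream of it, MAT2B had a further region at chr5:163503367-163505012, where alternative transcripts start. Its called bases numbered 276, 194 and 0 in vehicle against 0, 1646 and 1273 in OA. The broad calls were thus those of OA replicates 2 and 3, while OA replicate 1 and vehicle replicate 3 had none, and the groups overlapped. Bases covered within 3 kb of any MAT2B start site were 1573, 1781 and 1028 in vehicle and 1021, 3298 and 2719 in OA (exact permutation p = 0.40).

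GNMT, which spends SAM on glycine and so drains an excess of it, is a liver and pancreas enzyme. GNMT (ENSG00000124713.6, chr6:42960754-42963880) had weak calls over its start site, exon 1 and intron 1, in vehicle replicate 1 (514 bp) and in OA replicates 1 (449 bp) and 3 (639 bp). The calls stood at percentiles of 24.1, 14.5 and 15.1, with peak heights of 13, 11 and 11 reads. In untreated cells, replicate 1 had a call of 333 bp at a percentile of 2.72 and replicate 2 had none. No difference between vehicle and OA was detectable at this depth (171 ± 297 against 363 ± 328 bp, SD, n = 3; exact permutation p = 0.70).

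AHCY splits S-adenosylhomocysteine, which would otherwise inhibit the methyltransferases. AHCY (ENSG00000101444.13, chr20:34280268-34311802) was called in all 6 libraries and in both untreated ones, at chr20:34302208-34303510. Its percentiles were 92.1, 83.6 and 75.0 in vehicle and 92.4, 62.8 and 86.1 in OA. OA replicate 2 was the lowest and OA replicate 1 the highest of all 6, so the spread within OA was wider than any difference between the groups (83.6 ± 8.54 against 80.4 ± 15.6, SD, n = 3; exact permutation p = 0.90). A second AHCY region of 455 bp, 2697 bp from the nearest start site, was called in vehicle replicates 1 and 2 and in OA replicate 3, at percentiles of 17.2, 20.5 and 22.5.

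Homocysteine is methylated back to methionine by MTR, the cobalamin-dependent methionine synthase, which needs the reductase MTRR to keep its cobalamin active, or by BHMT, which takes the methyl group from betaine. MTR had the strongest H3K4me3 of the 10 genes by p-value and by peak height. By fold, AHCY stood at percentiles of 82.4 to 96.9 against 66.6 to 88.6 for MTR. AHCY was above MTR by fold in every library but vehicle replicate 3, at 83.8 against 84.2. MTR (ENSG00000116984.15, chr1:236795260-236921278) was marked at chr1:236795069-236796612, over exon 1 and the start of intron 1. Its percentiles were 99.0, 97.8 and 98.0 in vehicle and 99.1, 99.4 and 99.9 in OA, and averaged over the 6 libraries it was at or above 99.6% of the 11305 coding genes called in all of them.

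All 3 OA values of MTR were above all 3 vehicle values, as at 9.38% of regions, by 1.16 points in the mean (98.3 ± 0.669 against 99.4 ± 0.402, SD, n = 3; exact permutation p = 0.10). The limma difference was 0.48 (SE 0.27) with an adjusted p of 0.545, and so not a call. By peak height the order was the same, with percentiles of 99.1, 98.7 and 98.6 in vehicle and 99.2, 99.5 and 99.9 in OA. OA was above vehicle in 10.5% of regions by that measure. By the caller's fold the difference was gone: percentiles were 80.1, 66.6 and 84.2 in vehicle and 88.6, 67.5 and 78.3 in OA, which overlapped, and limma gave 0.06 (SE 0.32, adjusted p = 0.978). Without OA replicate 3, the difference by p-value was 0.30. Called length was nearly constant, at 1501, 1486 and 1278 bp in vehicle and 1441, 1506 and 1526 bp in OA, and the untreated libraries had calls of 1171 and 1153 bp there.

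MTRR (ENSG00000124275.15, chr5:7851186-7906025) was marked at chr5:7868280-7870071, from 868 bp before its canonical start site to 923 bp after it. The region also lies within 3 kb of a start site of FASTKD3, a mitochondrial RNA-binding protein gene, so the 2 genes share these values. Percentiles were 85.9, 77.4 and 87.6 in vehicle and 57.2, 74.3 and 68.4 in OA. All OA libraries were below all vehicle libraries, as at 7.10% of regions, by 17.0 points in the mean (83.7 ± 5.48 against 66.7 ± 8.69, SD, n = 3; exact permutation p = 0.10).

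With limma the MTRR difference was -0.56 (SE 0.26), with an adjusted p of 0.463. By peak height it was -0.64 (SE 0.24, adjusted p = 0.249), with percentiles of 84.9, 82.1 and 89.8 in vehicle and 57.1, 72.3 and 70.5 in OA. By fold the groups overlapped, at 73.1, 48.7 and 77.3 in vehicle and 54.9, 66.2 and 51.8 in OA, and the difference was -0.25 (SE 0.32, adjusted p = 0.865). None of the 3 was a call. Called length overlapped, at 1778, 1771 and 1404 bp in vehicle and 1424, 1595 and 1691 bp in OA.

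BHMT (ENSG00000145692.15, chr5:79111809-79132288), of liver and kidney, had no H3K4me3 peak in any library. Unlike MAT1A, its promoter was not poor in CpG, with 60.2% of promoters at or below it, and the ratio exceeded those of GNMT and CBS. It had an H3K27me3 peak of 932 bp in vehicle replicate 2 alone, at chr5:79114302-79115233 in intron 1, at a percentile of 81.1 in the library with the most H3K27me3 peaks of all. The only other H3K27me3 peak near a member was one of 450 bp in OA replicate 1, 2879 bp upstream of the nearest MTR start site, at a percentile of 5.65. Without a second library behind either, both were left out of the kept regions. Within 3 kb of the start sites, these peaks covered 508 bases at BHMT and 122 at MTR. No member had H3K27me3 bases that differed between the groups without overlap, where 0.415% of 5062 genes were above and 5.99% below with OA. None had a region of 1 group only, which 0.245% (OA) and 2.55% (vehicle) of kept H3K27me3 regions were.

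Among genes with no kept H3K4me3 region, 27.4% had a kept H3K27me3 region, and MAT1A and BHMT were not among these. Among genes with H3K4me3, 7.06% did, and none of the 8 marked members was among them. H3K27me3 lists differed widely in size, so that the lack of a call in the smaller ones sets little limit on the mark.

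Transsulfuration starts with CBS, which joins homocysteine to serine, and ends with CTH, which releases cysteine. CBS (ENSG00000160200.18, chr21:43053191-43076943) was the one member whose covered bases differed between the groups without overlap. Within 3 kb of its start sites, H3K4me3 peaks covered 0, 229 and 0 bases in vehicle and 308, 730 and 1127 in OA. All OA values were above all vehicle values (76.3 ± 132 against 722 ± 409.6 bp, SD, n = 3; difference 645 bp; exact permutation p = 0.10, adjusted over all genes 1.00). This separation was found at 1 of the 8 members with a called base, and at 8.77% of the 14144 genes with a called base, against 0.290% with OA below vehicle.

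The CBS peaks were small. They stood at a percentile of 23.7 in vehicle replicate 2 and at 7.40, 28.9 and 33.8 in OA, with heights of 14 reads and of 8, 18 and 24 reads, and untreated cells had none. The call in vehicle replicate 2 kept CBS from counting as an OA-only region, a class that held 1.84% of kept H3K4me3 regions and no member. With the same number of peaks taken from each library, the strongest 16086, the CBS call of OA replicate 1 was lost, the groups overlapped and the difference was 543 bp. In all, 14 coding genes had the exact pattern of CBS. In this pattern H3K4me3 was called in vehicle replicate 2 and all 3 OA libraries, with no H3K27me3, IgG or untreated call. These genes included GAMT, the methyltransferase that makes creatine.

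Reads at CBS are uncertain for a further reason. On hg38, 2001 bases around its start site match a second place, chr21:6466513-6468508, at 99.9% identity, where GENCODE lists an artifactual duplication of CBS. No other member has such a copy. At the copy, peaks covered 345, 400 and 0 bases in vehicle and 691, 752 and 671 in OA. Summed over both places, vehicle had 345, 629 and 0 bases and OA 999, 1482 and 1798 (325 ± 315 against 1426 ± 402 bp, SD, n = 3; difference 1102 bp; exact permutation p = 0.10). OA was thus above vehicle at either place and in the sum, which was computed after the values at CBS were seen. Reads cannot be assigned with certainty between CBS and the copy. Their values are therefore not independent, and the likeness of both places adds no support. No share over all genes was computed for the copy or the sum.

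**Figure D2:**
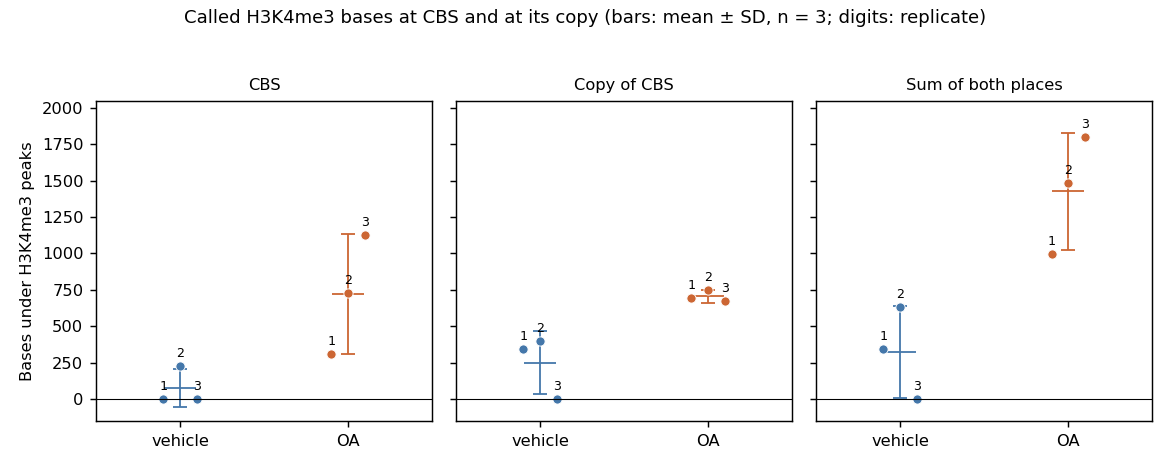
Bases under H3K4me3 peaks at CBS, at its near-identical copy on the same chromosome and in the sum of both, in 3 vehicle (blue) and 3 OA (orange) libraries, with mean ± SD as bars and the replicate number beside each point. The OA points lie above the vehicle points in each panel, from 999 to 1798 against 0 to 629 bases in the sum.

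CTH (ENSG00000116761.12, chr1:70411218-70439851) was called in all 6 libraries at chr1:70410505-70412266, from 763 bp before its canonical start site to 998 bp after it. Averaged over the 6 libraries, its H3K4me3 by p-value was the lowest of the 6 fully called members. It was at or above 7.51% of the coding genes called in all libraries. In vehicle replicate 3 MAT2A was lower by p-value, at 53.0 against 68.6 for CTH. By fold MAT2A was lower, at percentiles of 10.7 to 38.1 against 33.7 to 73.7 for CTH. The main region of MAT2B, at 10.9 to 80.5 by fold, was also below CTH in every library but vehicle replicate 3. Percentiles by p-value were 45.0, 44.7 and 68.6 in vehicle and 26.5, 41.8 and 43.2 in OA. OA was below vehicle in all libraries, as at 7.10% of regions, by 15.6 points in the mean (52.7 ± 13.7 against 37.1 ± 9.27, SD, n = 3; exact permutation p = 0.10). The nearest libraries of the groups, at 44.7 and 43.2, were close.

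The limma difference of CTH was -0.41 (SE 0.28, adjusted p = 0.619). It was -0.21 without vehicle replicate 3, -0.26 without OA replicate 1 and, by fold, -0.60 (SE 0.30, adjusted p = 0.64). By peak height the groups overlapped, with percentiles of 41.1, 45.9 and 67.0 in vehicle and 25.2, 45.9 and 44.7 in OA. Called bases were 1074, 1718 and 728 in vehicle and 1186, 1613 and 1178 in OA, which overlapped as well.

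**Figure D3:**
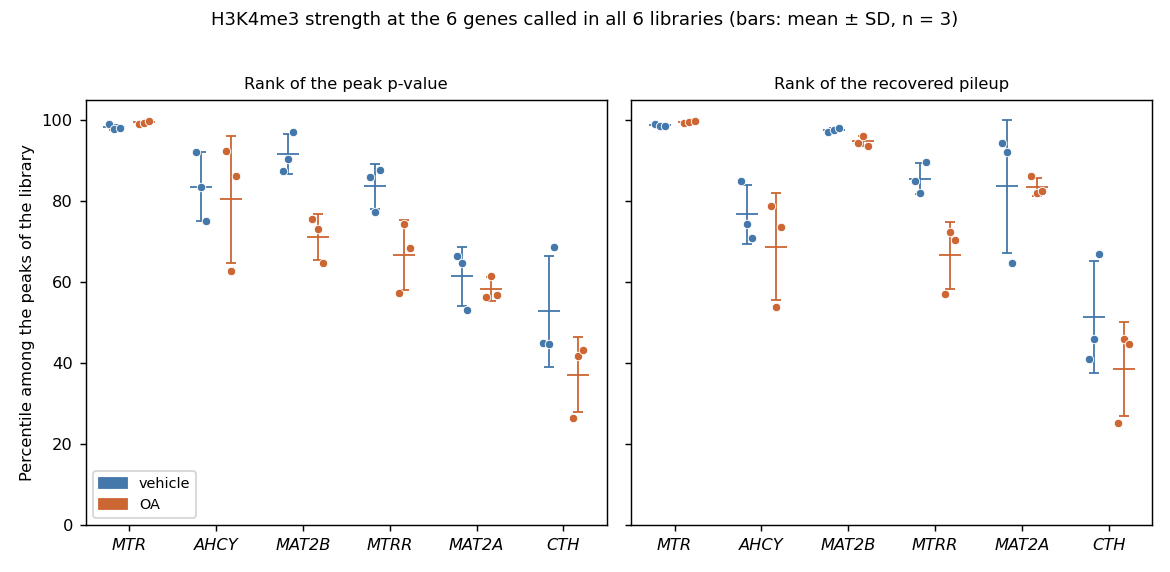
Percentile of the H3K4me3 peak of 6 members among all peaks of the same library, ranked by the caller's p-value (left) or by the recovered peak height in reads (right), for 3 vehicle (blue) and 3 OA (orange) libraries, with mean ± SD as bars. OA lies below vehicle without overlap at MAT2B and MTRR in both panels and at CTH on the left alone, and above it at MTR in both. Over all regions ranked, 7.10% were below and 9.38% above in this way by p-value, and 8.60% and 10.5% by height.

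The 6 members called in every library differed widely in strength by p-value. Averaged over the 6 libraries, their percentiles were 98.9 for MTR, 82.0 for AHCY, 81.4 for MAT2B, 75.2 for MTRR, 59.8 for MAT2A and 44.9 for CTH, with a median of 78.3 against 72.0 over all coding genes called in all 6. AHCY and MAT2B, next to each other in this order, had overlapping libraries. By called length, no member differed between the groups without overlap, where 6.68% of regions were longer and 0.533% shorter with OA. In limma on log2 length, no region passed (0%), with 507 higher and 393 lower at an unadjusted p below 0.05, and the members lay between -0.23 (MTRR, SE 0.14) and 0.09 (CTH, SE 0.23).

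**Figure D4:**
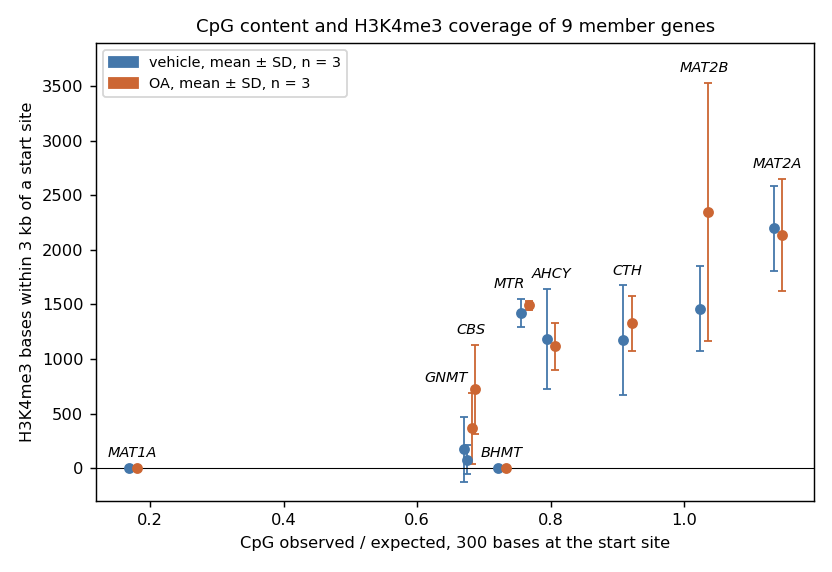
H3K4me3 bases within 3 kb of a start site, as mean ± SD of 3 vehicle (blue) or 3 OA (orange) libraries, against the observed over expected CpG ratio of the 300-base promoter window, for the 9 members in the RefSeq table. MAT1A at 0.174 and BHMT at 0.727 lie at 0 bases, and CBS at 0.680 and GNMT at 0.676 have partial coverage.

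The CpG ratio did not separate members with any H3K4me3 region from those without. BHMT at 0.727 had none, while CBS at 0.680 and GNMT at 0.676 were called in some libraries. The members called in all 6 libraries did lie higher, from 0.762 (MTR) to 1.14 (MAT2A), with BHMT the highest of the others. Short motifs were searched in both strands of the 300-base windows. The Sp1 core GGGCGG was found in 7 of 9 members, in all but MAT1A and GNMT, and in 45.0% of all promoters. TATAAA was found at MAT2A and BHMT and in 11.5% of promoters. The ATF4 element TGATGCAA (0.866% of promoters), the E-box CACGTG (7.26%) and the antioxidant element TGACNNNGC (13.3%) were found in none of the 9 windows.

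The wider pathway held 41 listed genes of methionine import, methyl transfer, cobalamin and folate supply, salvage, polyamine, glutathione and sulfide metabolism, 40 of them in the annotation. H3K4me3 regions were found at 37, in all 6 libraries at 33, where 66.8% and 56.4% of all coding genes had one. All 3 importers, all 4 polyamine genes, all 5 glutathione genes and all 7 genes of cysteine and sulfide breakdown had one, as did 4 of 5 salvage genes and 8 of 9 genes of cobalamin, folate and betaine supply. The 3 without one were BHMT2, a homocysteine methyltransferase of liver, SARDH, which breaks down sarcosine, and MTAP, which salvages methionine from methylthioadenosine. Whether the DNA of MTAP or BHMT2, which had no peak of either mark, was present in the cells was not tested. H3K27me3 was kept at 3 of 40, against 13.8% of coding genes: LMBRD1, which exports cobalamin from the lysosome, SARDH, and CDO1, which oxidizes cysteine. None passed the limma test of strength or length.

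TCN2, which carries cobalamin to cells and so serves MTR, had the only OA-only region of these 40 genes, with 0 bases in each vehicle library and 356, 357 and 658 in OA. GAMT had 0, 215 and 0 in vehicle and 575, 644 and 935 in OA, also in weak peaks, at percentiles of 8.65 in vehicle replicate 2 and 14.5, 28.7 and 32.2 in OA. CHAC1, which breaks down glutathione, had 896, 1507 and 558 in vehicle and 1609, 1995 and 1972 in OA. These 3 of the 38 listed genes with a called base were above vehicle without overlap (exact permutation p = 0.10 each), a share close to the 8.77% of all genes, and none was below. No member or listed gene had a vehicle-only region, which 0.0801% of H3K4me3 regions were.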

How the data were processed

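MCF-10A cells were profiled by CUT&RUN in 16 libraries. Per the submitters' processing notes, the build was hg38 and peaks were called with MACS2 v2.2.7.1; the methods name SICER2 for H3K27me3, but those lists have the broadPeak layout of MACS2. The aligner and the treatment of duplicates are not given in the sources used here. In the deposited lists, called by the authors in each library separately, column 7 is the fold (a ratio of peak to local background), column 8 the −log10 p and column 9 the −log10 q. No column was scaled between libraries. The highest q-value was 0.00998 in narrow and 0.1 in broad lists, and read totals are not in the lists, so no interval of counting error is given.

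Peaks on autosomes, X and Y were merged per mark across the 6 vehicle and OA libraries (minimum overlap 1 bp), and a region was kept if 2 or more libraries called it. Start sites came from GENCODE release 44. Percentiles count the peaks of a library with a value at most as high. Differences were tested with two-sided exact permutation tests (3 against 3, smallest p 0.1), and with limma 3.58.1 (R 4.3.3) across all regions called in all 6 libraries, with Benjamini-Hochberg adjustment at 0.05, on normal scores of the column 8 rank and on log2 called bases centred per library. Read heights were recovered from columns 7 and 8, taking the fold as (reads + 1) / (background + 1) and the p as a Poisson tail, within 0.005 of column 8; peaks over 250 in column 8 were left out. Copies were sought with minimap2 2.31-r1302 in 2001 bases per start site, with at least 500 aligned. Python 3.11.15, scipy 1.17.1 and statsmodels 0.14.6 were used. Scripts were tested on simulated data.

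All 10 members are described; of the wider list, genes without H3K4me3, with kept H3K27me3, with a region of 1 group only, or past a threshold are named, and GAMT and CHAC1 were named after their values were seen. The members and lists were chosen with earlier results of these data known. The authors' tables of differential regions were not used.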

Additional observations from a re-analysis of the deposited data

How the results depend on the processing

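The calls of H3K4me3 at the members (6 in all libraries, 8 with a region) moved by less than 1.5 times under these alternatives: a q-value of at most 1e-05, equal numbers of peaks, the canonical start site alone, 1 kb windows, removal of regions with an IgG peak and each library left out. With peaks covering at least 50% of a region, CTH was no longer called in all libraries. Members with H3K27me3 went from 0 to 2 (MTR, BHMT) with regions called in any library. OA-only regions at members went from 0 to 1 (CBS) without vehicle replicate 2, and ranged from 0 to 1. Members whose covered bases did not overlap were 1 in the main count and 0 with the same number of peaks. They ranged from 1 to 3 with 1 library left out, with 2 without vehicle replicate 2 (CBS, CTH). There were 3 without vehicle replicate 3 (CBS above, AHCY and MTRR below) and 3 without OA replicate 1 (MAT2B, MTR, CBS). Counts over all genes shifted as well. Without vehicle replicate 2, OA was above at 1859 of 14133 genes. Without vehicle replicate 3, it was above at 1245 and below at 1984 of 14068. Without OA replicate 1, it was above at 4426 of 14098. The added members are therefore not read as a result about these genes. Regions past limma's threshold, 0 in the main fits, ranged from 0 to 6 for strength (6 without vehicle replicate 1, 1 without OA replicate 2) and from 0 to 11 for length (11 without vehicle replicate 3, 2 without vehicle replicate 1). They were 11, all higher with OA, with ranks of the recovered height, an alternative chosen after seeing the data. No member was among any of these, and the cause was not tested. Some signs reversed. The strength difference of AHCY was -0.08 (SE 0.33) in the main fit. It became 0.13 with ranks of column 7, 0.12 without vehicle replicate 1 and 0.24 without OA replicate 2 (range -0.32 to 0.24 with 1 library left out). Its direction was thus not settled. The length of CTH became -0.03, -0.01 and -0.03 without vehicle replicate 1, vehicle replicate 3 and OA replicate 2 (range -0.03 to 0.30), and that of MTR 0.04 without vehicle replicate 3 (range -0.17 to 0.04). Without centring, which moved the median of all regions from -0.03 to 0.13, lengths became 0.07 for MTR, 0.07 for MAT2B and 0.06 for AHCY.

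With the replicate number as a block, limma called 0 regions for strength and 0 for length, as without it. Deviations of same-numbered vehicle and OA libraries correlated at 0.19, 0.22 and -0.20, so the numbers were not taken to pair the samples. Vehicle replicate 3 had the lowest recovered background, so missing calls there set the weakest limit.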
